A study of Mus musculus with 74 samples.

Results

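The 10 genes described here, Sprr1a, Gadd45a, Ecel1, Flrt3, Csf1, Anxa1, Reg3b, Arg1, Tgm1 and Plaur, are known as genes that dorsal root ganglion (DRG) neurons switch on when their peripheral axon is cut or crushed. They were taken by name from the 53379 genes counted in the series. The study asked how DRG neurons whose central axons ascend in the dorsal columns respond to spinal cord injury (SCI), next to the response to sciatic nerve injury (SNI). Whole L4 DRG was sequenced from C57BL/6 wild-type female mice of 10 to 12 weeks, 4 uninjured and 4 taken 1 day after SCI. Sorted neurons came from female Thy1YFP16 mice of 10 to 20 weeks, in which the Thy1 promoter drives YFP in a subset of neurons. There were 6 naive mice, and SNI at 1 day, SNI at 3 days, SCI at 1 day and SCI at 3 days had 4 mice each. SNI was a crush of the sciatic nerve and SCI a dorsal hemisection at T9/10. From each Thy1YFP16 mouse, 3 wells of about 100 YFP-positive L4 cells were collected by FACS, and the reads of the 3 wells were summed here, so that the mouse is the unit of every comparison. Whole-DRG SNI and DLK knockout values were not used here.

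An injured peripheral axon sends signals back to its cell body, where transcription factors such as ATF3, JUN and SOX11 start a programme that goes with regrowth. The same neuron's central branch can be severed in the spinal cord without starting much of that programme, which is one reason these genes are used as indicators of axotomy in DRG. The members fall into several roles: Sprr1a, Tgm1 and Anxa1 belong to the cornified envelope of skin and act elsewhere in neurons, Gadd45a answers cell stress and DNA damage, Flrt3 is a membrane adhesion molecule, Csf1 and Reg3b are secreted, Ecel1 and Arg1 are enzymes, and Plaur is the receptor of urokinase.

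Depth was high in both experiments, with 21959030 to 44493319 reads on genes per whole-DRG library and 30518187 to 83599972 per mouse of sorted neurons. The wells were uneven in cell content. In 20 of 66 wells, from 14 of 22 mice, a list of 10 glial genes (Apoe, Fabp7, Sox10 and others) took more reads than a list of 10 neuronal genes, and these are called glial wells below. The glial list held 3.18% to 14.4% of reads in glial wells against 0.167% to 1.28% in the others, and the neuronal list a median of 0.045% against 3.27%. Some glial wells were mixed, with up to 1.74% on the neuronal list. Glial wells were present in every group (6 of 18 naive, 3 of 12 at SNI 1d, 4 of 12 at SNI 3d, 3 of 12 at SCI 1d and 4 of 12 at SCI 3d), and mouse 3 of SNI 3d and mouse 3 of SCI 3d had no other kind. Nociceptor markers also varied widely, from a summed level of 31.8 to 22860 CPM (counts scaled to library size, the unit of levels from here on) among naive mice. The glial name compares the glial and neuronal lists only and does not exclude other cells. In SCI 3d mouse 3, 8 fibroblast and vessel markers summed to 66850 CPM. The glial list summed to at most 56220 CPM in any SCI 3d mouse. The wells of SCI 3d mouse 3 held 4.12%, 3.18% and 4.73% of reads on the glial list. The part of fibroblast and vessel cells in its levels was not tested. The titles in the labels put the mice in a FACS and a FACS2018 set, with mice of every group in each. The naive mice of FACS2018, mice 5 and 6, each had wells b and c glial. In the FACS set the glial naive wells were well c of mouse 1 and well a of mouse 2. Differences from naive within FACS2018 thus rest on naive mice with mostly glial wells. Results are given with all wells and, where they differ, without the glial wells. Nothing in the labels says that animals were pooled, and all 22 mice entered the fit, although the study's methods drop outlier samples that the labels do not name.

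The promoters of the members were read to see whether a shared binding motif of the injury-induced factors stood near the start sites. Promoter windows of 300 bases, from 250 before to 50 after the start (RefSeq, GRCm38.p6), were found for 9 of the 10 members and not for Arg1, with a pair of windows for Tgm1. The core letters of the AP-1 motif, TGANTCA, bound by JUN-containing dimers, were searched on both strands and stood in 2 of the 9 members, against 7.81% of all 32851 windows. The palindrome TGACGTCA, the CRE motif that ATF family dimers bind, stood in none of the 9 and in 1.79% of all windows. The 2 promoters with an AP-1 core are shown with its letters in capitals, and the Flrt3 promoter, which has neither motif in this window, is shown for comparison. Sprr1a lies at chr3:92485832-92486131 on the minus strand, Plaur at chr7:24462233-24462532 on the plus strand and Flrt3 at chr2:140671427-140671726 on the minus strand, each written 5′ to 3′ along the gene.
Sprr1a: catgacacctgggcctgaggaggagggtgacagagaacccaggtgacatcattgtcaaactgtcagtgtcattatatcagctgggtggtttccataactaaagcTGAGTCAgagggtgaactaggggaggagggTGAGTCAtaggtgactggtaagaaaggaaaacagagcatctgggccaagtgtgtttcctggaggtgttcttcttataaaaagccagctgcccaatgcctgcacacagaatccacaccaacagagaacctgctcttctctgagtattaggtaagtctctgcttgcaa
Plaur: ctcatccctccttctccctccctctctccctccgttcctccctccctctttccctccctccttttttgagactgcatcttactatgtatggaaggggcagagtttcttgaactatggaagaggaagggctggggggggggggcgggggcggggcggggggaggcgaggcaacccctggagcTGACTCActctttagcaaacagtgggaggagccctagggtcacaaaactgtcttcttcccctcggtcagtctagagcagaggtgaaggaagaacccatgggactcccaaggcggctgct
Flrt3: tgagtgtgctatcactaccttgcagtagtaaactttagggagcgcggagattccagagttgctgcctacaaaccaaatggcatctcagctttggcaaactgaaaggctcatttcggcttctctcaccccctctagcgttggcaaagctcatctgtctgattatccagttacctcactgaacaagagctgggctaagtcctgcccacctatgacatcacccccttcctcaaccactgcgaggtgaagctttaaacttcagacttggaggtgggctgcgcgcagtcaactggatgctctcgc
The Sprr1a window holds 2 copies of the core, from −146 to −140 and from −116 to −110 relative to the start, and the Plaur window holds 1, from −69 to −63.

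In sorted neurons, Gadd45a, Flrt3 and Reg3b rose on both days after SNI and Sprr1a rose at 3 days, while no member passed the edgeR test after SCI. Of the 9 members with enough reads (all but Arg1), edgeR's quasi-likelihood test with Benjamini-Hochberg adjustment over 23507 genes and 2 RUVr factors (unwanted variation estimated from residuals) called 3 at SNI 1d (Gadd45a, Flrt3 and Reg3b) against 0.685% of all genes, and 4 at SNI 3d (the same 3 and Sprr1a) against 0.706%, all of them higher at adjusted p under 0.1. At SCI 1d 0 of the 9 were called against 0.017% of all genes, and at SCI 3d 0 of 9 against 0 of all genes, where 2208 genes had an unadjusted p under 0.05. The median log2 fold change of the 9 members was 3.82 at SNI 1d and 4.01 at SNI 3d, beside 0.17 and −0.01 for all genes tested, and 0.25 at SCI 1d and 0.89 at SCI 3d, beside 0.18 and 0.01. In the same fits the 10 macrophage markers had median log2 fold changes of 3.95 and 4.54 at SNI 1d and 3d and −2.01 and 1.94 at SCI 1d and 3d, and the 5 nociceptor markers −1.06 and −4.69 at SNI 1d and 3d, with 0 called in either list. The summed macrophage level ran from 0.0130 to 572 CPM in naive mice, from 2.62 to 288 at SNI 1d and from 3.04 to 251 at SNI 3d, and the nociceptor level from 65.2 to 7979 at SNI 1d and from 2.65 to 338 at SNI 3d. The part of these markers in the members' changes was not tested. In 6 of the 9 (Sprr1a, Gadd45a, Flrt3, Csf1, Reg3b and Plaur) every SNI 1d mouse lay above every naive mouse, which held for 1.3% of all genes, and in 4 (Sprr1a, Gadd45a, Csf1 and Reg3b) every SNI 3d mouse did, against 0.961%. For Reg3b the lowest SNI mouse had 2 reads at 1 day and 1 read at 3 days, against 1 read in naive mouse 1. Its separation thus rests on 1 or 2 reads and on library scaling. Reg3b and Tgm1 reached 20 reads only in SNI mice and were tested only because of those mice. No member had every SCI mouse above every naive mouse on either day, against 0.362% of genes on day 1 and 0.264% on day 3. The 4 injury comparisons share the same naive mice. The calls depended on the fit: without the RUVr factors, or with the labels' FACS and FACS2018 sets or the replicate number as a block in their place, 0 members were called on either SNI day, and leaving out 1 mouse at a time gave 1 to 5 calls at SNI 1d and 0 to 4 at SNI 3d. With the glial wells left out instead, 6 members were called at SNI 1d against 8.17% of 22620 genes and 5 at SNI 3d against 7.57%, and 0 after SCI against 0.217% and 0. The members' median log2 fold changes were then 4.80 at SNI 1d and 4.22 at SNI 3d, beside 0.40 and 0.39 for all genes. At SCI 1d and 3d they were 0.26 and 1.975, beside 0.38 and 0.31. DESeq2 called 7 on each SNI day, Ecel1 at SCI 1d, and Sprr1a and Ecel1 at SCI 3d. At SNI 1d and SCI 3d it also called more of all genes than edgeR, as given in the closing section. Its shares of all genes at SNI 3d and SCI 1d are not given here. Ecel1 had 3 reads at SCI 1d, all in mouse 4, and 75 of its 79 reads at SCI 3d came from well c of mouse 2.

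**Figure D1:**
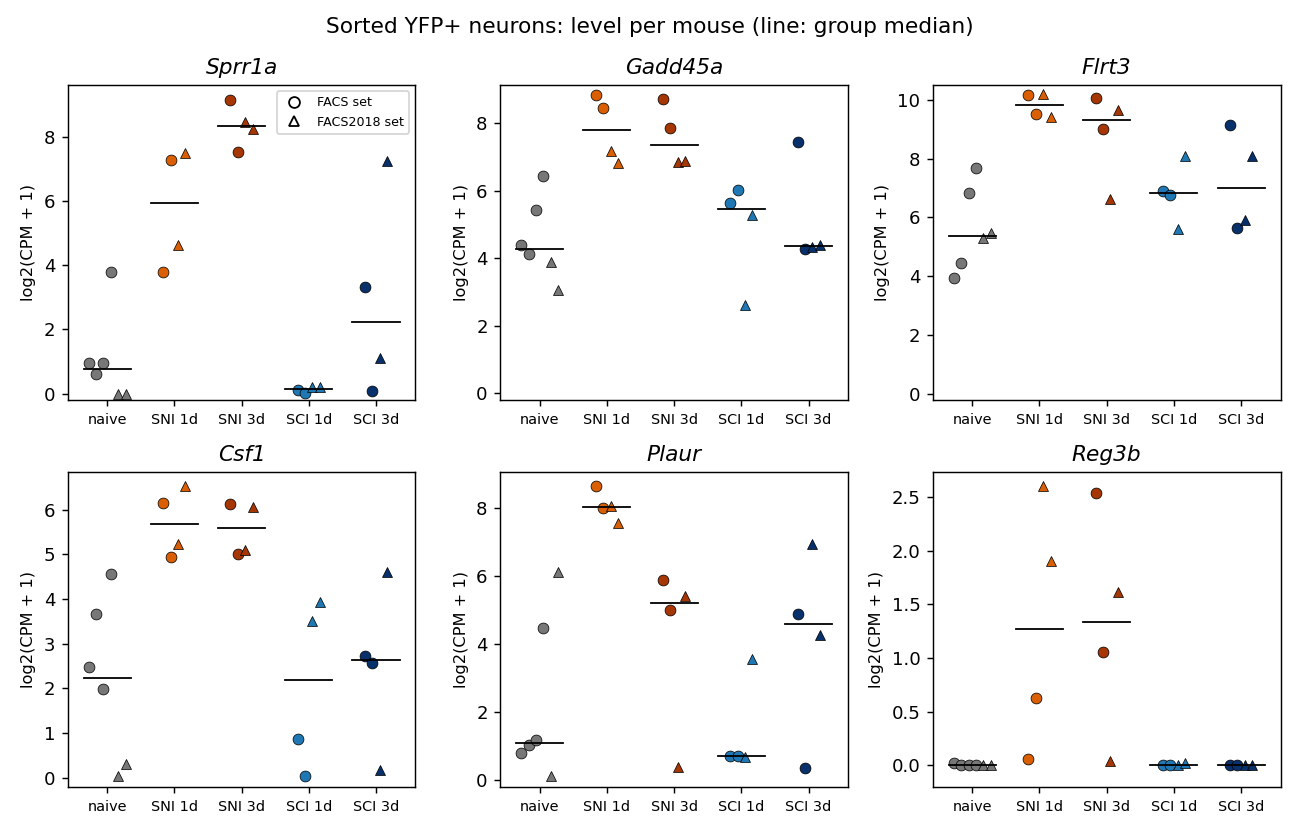
Level of 6 members in each mouse's sorted neurons, as log2(CPM + 1) by group, with circles and triangles for the labels' FACS and FACS2018 sets and a line at the group median. The SNI 1d mice lie above all naive mice in each panel, and the SCI 1d mice lie among or below the naive mice for Sprr1a and Gadd45a. For Reg3b the lowest SNI 1d mouse is only just above, with 2 reads against 1.

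Sprr1a (ENSMUSG00000050359, chr3:92483952-92485895, minus strand, GRCm38) encodes a small proline-rich protein that promotes axon outgrowth in neurons. Among naive mice its level ran from 0 CPM through a median of 0.732 to 12.9 CPM. At SNI 1d the 4 mice had 13, 153, 23.7 and 178 CPM, and at SNI 3d 571, 185, 353 and 301 CPM. All SNI mice were thus above all naive mice, narrowly for the first SNI 1d mouse, and the SNI 3d mice were all above the SNI 1d mice. At SCI 1d the values were 0.0718, 0.0238, 0.147 and 0.165 CPM, and at SCI 3d 9.12, 0.0697, 1.17 and 149.8 CPM. SCI 1d mice were therefore near the bottom of the naive range, whereas SCI 3d was split between mouse 4, near the SNI levels, and 3 mice within the naive range. The log2 fold change over naive was 8.29 (SE 1.79, adjusted p = 0.0775) at SNI 3d and 5.75 (SE 1.58, adjusted p = 0.125) at SNI 1d. It was −3.65 (SE 1.87, adjusted p = 0.426) at SCI 1d and 4.80 (SE 1.54, adjusted p = 0.450) at SCI 3d, which differ in sign without either passing the test. Leaving out 1 mouse moved the SCI 3d value between 0.74 (without SCI 3d mouse 4) and 7.11 (without naive 4), and the SCI 1d value between −4.17 and −1.32. Within the FACS and FACS2018 sets, the difference of mean log2(CPM + 1) from naive was 3.96 and 6.06 at SNI 1d, 6.77 and 8.35 at SNI 3d, −1.51 and 0.21 at SCI 1d, and 0.14 and 4.18 at SCI 3d.

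Sprr1a also differed from well to well. At SNI 3d all 8 non-glial wells had at least 1 CPM, from 12.1 to 819 CPM, and 3 of the 4 glial wells did, with up to 565 CPM. The 2 highest of these glial wells, both of mouse 3, also held 1.74% and 1.46% of reads on the neuronal list, a share within the range of the non-glial wells (1.11% or more). At SNI 1d the count was 8 of 9 non-glial wells, at SCI 1d 0 of 9, at SCI 3d 2 of 8 and in naive mice 4 of 12. With the glial wells left out, Sprr1a was called at SNI 1d as well (log2 fold change 6.07, SE 1.54, adjusted p = 0.0394). Sprr1b, the closest relative, had 38 reads in all at SNI 3d and 0 at SNI 1d.

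Tgm1 (chr14:55700009-55713926, minus strand), a transglutaminase that cross-links proteins such as SPRR1A in skin, was at or near 0 in sorted neurons. Naive mice had 1 read in all and SNI 1d mice 0, and the 56 reads at SNI 3d came from a single well of mouse 4, at 3.68 CPM. The SNI 3d value of Tgm1 therefore describes that well and not the 4 mice.

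Anxa1 (chr19:20373428-20390944, minus strand), a calcium- and phospholipid-binding protein of the annexin family, was read mainly in some of the glial wells, except at SNI 3d and SCI 1d where it was low. Most glial wells had little of it: 9 of 20 reached 1 CPM, with a median of 0.420 CPM. Of the non-glial wells 13 of 46 did, with a median of 0.152 CPM. Naive mice ran from 0 to 747 CPM with a median of 2.01. SNI 1d mice had 120, 1.35, 28.9 and 0.718 CPM, SNI 3d mice 15.1, 0.283, 1.14 and 2.44, SCI 1d mice 0, 0, 0.0211 and 4.59, and SCI 3d mice 0, 0.975, 356 and 0.420. The groups overlap throughout, and glial wells held most of the reads of the 4 mice above 100 CPM. The highest well, a glial well of naive mouse 5, had 2186 CPM, the highest of the 46 non-glial wells 29.2 CPM, and the 3 wells of SCI 3d mouse 3, all glial, had 299, 238 and 188 CPM. That mouse also had the group's highest summed levels of 8 fibroblast and vessel markers (66850 CPM) and of 10 macrophage markers (1218 CPM), whose part in its Anxa1 level was not tested. In the non-glial wells alone the mean Anxa1 level was 0.989 CPM in naive mice, 5.19 at SNI 1d, 7.04 at SNI 3d (3 mice), 1.23 at SCI 1d and 0.490 at SCI 3d (3 mice), with ranges that overlap naive, and it was not called in any comparison with naive. Of the non-glial wells, 7 of 12 naive, 8 of 9 SNI 1d, 8 of 8 SNI 3d, 2 of 9 SCI 1d and 3 of 8 SCI 3d wells had any Anxa1 read.

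Gadd45a (ENSMUSG00000036390, chr6:67035096-67037457, minus strand), whose product binds cell-cycle and stress-kinase proteins, was at like levels on both days after SNI. Naive mice ran from 7.28 to 86.8 CPM with a median of 18.4. SNI 1d mice had 455, 348, 143 and 113 CPM, and SNI 3d mice 425, 231, 115 and 117. All 8 SNI mice lay above all 6 naive mice, with the lowest SNI mice just above the naive maximum. SCI 1d mice had 48.5, 63.6, 5.14 and 37.9 CPM, all within or below the naive range, and SCI 3d mice 174, 18.5, 19.3 and 20.1, of which mouse 1 stood alone above it. Gadd45a rose by a log2 fold change of 3.15 (SE 0.70, adjusted p = 0.0661) at SNI 1d and 3.05 (SE 0.71, adjusted p = 0.0812) at SNI 3d. After SCI it was 0.35 (SE 0.68, adjusted p = 0.924) at 1 day and 0.85 (SE 0.68, adjusted p = 0.708) at 3 days, the latter −0.36 without mouse 1 of SCI 3d. Within the FACS and FACS2018 sets the SNI 1d difference of mean log2(CPM + 1) was 3.53 and 3.53, and that at SNI 3d 3.19 and 3.39. Its relatives did not reach this level: Gadd45b ran from 1.07 to 18.4 CPM and Gadd45g from 32.4 to 56.0 CPM at SNI 1d, and neither passed the test with all wells.

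Flrt3 (chr2:140650914-140671469, minus strand), a leucine-rich repeat membrane protein that binds UNC5 and latrophilin receptors, was already present in every naive mouse. Naive mice ran from 14.4 to 204 CPM with a median of 40.6. SNI 1d mice had 1144, 726, 1164 and 682 CPM and SNI 3d mice 1064, 511, 96.7 and 800. The low SNI 3d value is that of mouse 3, all of whose wells were glial, and it alone kept the SNI 3d and naive ranges from separating. SCI 1d mice had 118, 107, 47.4 and 271 CPM and SCI 3d mice 563, 48.4, 59.5 and 268, with 1 SCI 1d mouse and 2 SCI 3d mice above the naive maximum. Flrt3 rose by a log2 fold change of 3.71 (SE 0.67, adjusted p = 0.0336) at SNI 1d and 2.87 (SE 0.65, adjusted p = 0.0801) at SNI 3d. The changes after SCI were 0.84 (SE 0.64, adjusted p = 0.644) at 1 day and 1.57 (SE 0.63, adjusted p = 0.498) at 3 days. Within the FACS and FACS2018 sets the difference of mean log2(CPM + 1) was 4.11 and 4.42 at SNI 1d, 3.80 and 2.75 at SNI 3d, 1.10 and 1.47 at SCI 1d, and 1.66 and 1.62 at SCI 3d. Without the glial wells the SNI changes were 4.80 (adjusted p = 0.0078) and 4.22 (adjusted p = 0.0169), and the SNI 3d mice then lay above all naive mice as well, as 3.75% of all genes did. Flrt3 lies within Macrod2 on the opposite strand and Gadd45a overlaps E230016M11Rik. Macrod2 had 100918 reads over all libraries and E230016M11Rik 3751, and whether the counting used strand is not given in the sources used here, so reads of these pairs may not be fully separable.

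Csf1 (chr3:107741048-107760469, minus strand) encodes the growth factor of macrophages and microglia that injured sensory neurons release. Naive mice ran from 0.0252 to 22.4 CPM with a median of 3.77. SNI 1d mice had 69.9, 29.7, 36.4 and 90.9 CPM and SNI 3d mice 69.0, 31.0, 33.4 and 65.6. All 8 SNI mice were above all 6 naive mice, and the SNI groups were alike on both days. SCI 1d mice had 0.838, 0.0238, 10.4 and 14.2 CPM and SCI 3d mice 5.65, 4.89, 0.138 and 23.3, which cover the naive range. Despite the separation the test was not passed, with log2 fold changes of 3.82 (SE 1.28, adjusted p = 0.192) at SNI 1d and 4.01 (SE 1.35, adjusted p = 0.230) at SNI 3d. Without the glial wells Csf1 was called at SNI 1d (4.24, SE 1.32, adjusted p = 0.0812) and not at SNI 3d (3.89, adjusted p = 0.109). The size differed between the sets, 2.38 in FACS and 5.70 in FACS2018 at SNI 1d on the log2(CPM + 1) scale. After SCI 1d the sets had opposite signs, −2.71 and 3.55.

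Csf1 was read mainly in the non-glial wells. All 9 non-glial wells of SNI 1d had 24.4 to 129 CPM, against 0.337 to 1.37 CPM in the 3 glial wells of that group. Over all groups 36 of 46 non-glial wells and 2 of 20 glial wells reached 1 CPM. Its receptor gene Csf1r, a macrophage marker, had a median of 0 CPM in naive mice and 0.176 CPM at SNI 1d, with a highest mouse of 61.9 CPM in naive mice, 3.45 at SNI 1d, 51.6 at SNI 3d, 0.0211 at SCI 1d and 95.8 at SCI 3d. Il34, which encodes the other ligand of that receptor, did not pass the test and ran from 25.9 to 69.6 CPM at SNI 1d and from 24.4 to 305 CPM in naive mice.

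**Figure D2:**
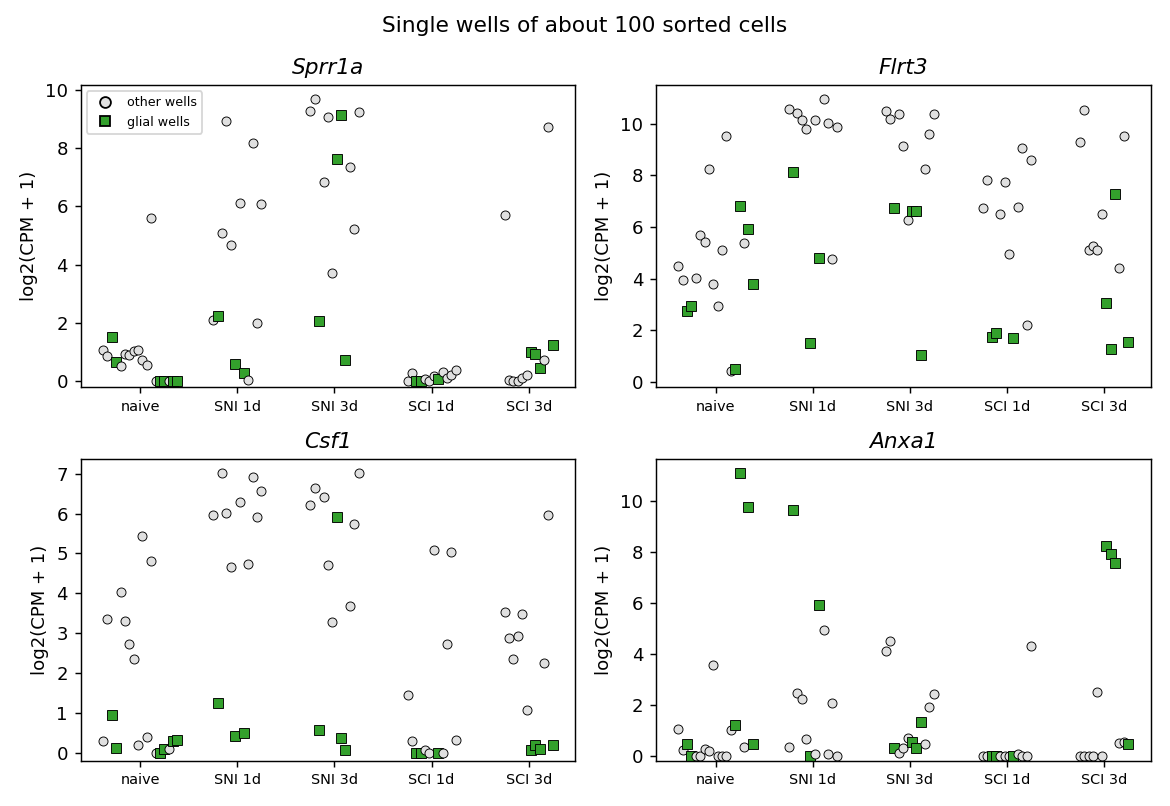
Level of Sprr1a, Flrt3, Csf1 and Anxa1 in each of the 66 wells of about 100 sorted cells, as log2(CPM + 1) by group, with green squares for the 20 glial wells. Csf1 is under 1 CPM in 18 of the 20 glial wells, and the Anxa1 wells above 29.2 CPM are all glial.

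Reg3b (chr6:78370657-78373466, plus strand), a secreted lectin of the regenerating islet-derived family, was read almost only after SNI. The 6 naive mice had 1 read together, SCI 1d mice 1 read and SCI 3d mice 0. SNI 1d mice had 2, 22, 395 and 95 reads and SNI 3d mice 233, 61, 1 and 142, the mouse with 1 read being mouse 3 with its glial wells. Over the pooled reads of each group the ratio to naive was 854 (95% exact interval 153 to 33812) at SNI 1d and 691 (123 to 27357) at SNI 3d, where the intervals cover counting error only. Reg3b was called on both days (adjusted p = 0.0576 and 0.0801), but was tested only because of the SNI mice. The reads were concentrated in few wells: all 395 of SNI 1d mouse 3 came from 1 well, and 7 of 46 non-glial wells and 0 of 20 glial wells reached 1 CPM. Reg3g had 457 reads at SNI 3d, nearly all in 1 mouse at 9.17 CPM, and 0 at SNI 1d. How reads shared by these near copies were split in the counting was not tested.

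Plaur (chr7:24462484-24475968, plus strand), the membrane receptor that gathers urokinase-type plasminogen activator at the cell surface, was high at 1 day and lower at 3 days after SNI. Naive mice ran from 0.0755 to 67.5 CPM with a median of 1.15. SNI 1d mice had 396, 251, 266 and 188 CPM and SNI 3d mice 58.3, 30.7, 0.311 and 41.2. Every SNI 1d mouse was above every naive mouse and above every SNI 3d mouse, and with all wells the SNI 3d mice were within the naive range. SCI 1d mice had 0.646, 0.618, 0.610 and 10.8 CPM and SCI 3d mice 28.7, 0.279, 121 and 18.1. The log2 fold change over naive was 5.70 (SE 1.71, adjusted p = 0.159) at SNI 1d and 3.38 (SE 1.75, adjusted p = 0.428) at SNI 3d, and neither passed the test. Leaving out 1 mouse moved the SNI 3d value between 0.45 (without naive 5) and 5.49 (without naive 4). Within the FACS and FACS2018 sets it was 6.43 and 4.71 at SNI 1d and 3.57 and −0.21 at SNI 3d on the log2(CPM + 1) scale, the last with mouse 3. With the glial wells left out both changes passed the test (6.94, SE 1.42, adjusted p = 0.0154, and 4.08, SE 1.33, adjusted p = 0.0963). The 3 SNI 3d mice that remained were then above every naive mouse (22.6 CPM or less), as held for 3.75% of all genes. The highest naive mouse owed its Plaur to 2 glial wells at 100.2 and 67.1 CPM, and glial wells held 65.3% of the summed Plaur level in naive mice and 67.6% at SCI 3d, but 3.75% at SNI 1d. After SCI the changes were −0.37 (SE 1.49, adjusted p = 0.997) and 2.48 (SE 1.57, adjusted p = 0.620). Plau, the gene of its ligand, stayed at or under 2.07 CPM in all SNI 1d mice.

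Both enzymes were scarce in sorted neurons. Ecel1 (chr1:87147655-87156521, minus strand), an endopeptidase of the neprilysin family also called DINE, had 1 read in the 6 naive mice together, 455 at SNI 1d, 46 at SNI 3d, 3 at SCI 1d and 79 at SCI 3d. Of the 455 reads 453 came from 1 well of SNI 1d mouse 3, the same well that held the Reg3b reads, and 75 of the 79 from 1 well of SCI 3d mouse 2. The pooled ratio of SNI 1d to naive, 756 (95% exact interval 135 to 29938), therefore describes 1 well and not the 4 mice. Arg1 (chr10:24915221-24927484, minus strand), the cytosolic arginase, had at most 3 reads in any mouse and was not tested, while Arg2, the mitochondrial arginase, is described with the relatives.

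**Figure D3:**
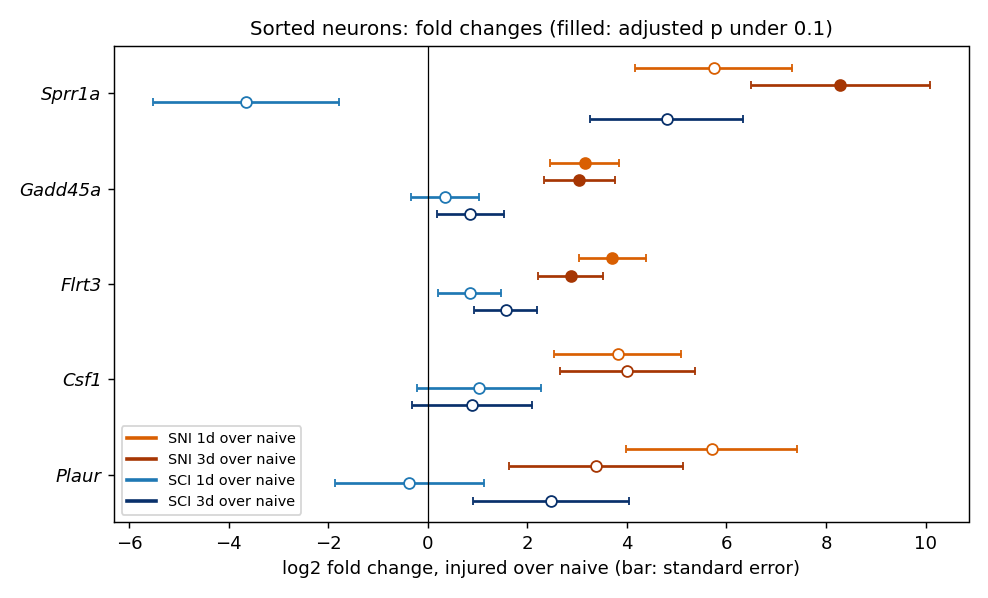
Log2 fold change over naive of 5 members in sorted neurons for SNI and SCI at 1 and 3 days, with the standard error as a bar and filled symbols at adjusted p under 0.1. The filled points are Gadd45a and Flrt3 on both SNI days and Sprr1a at SNI 3d.

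Set directly against each other, SNI and SCI separated 6 of 9 members by mouse at 1 day and 3 at 3 days, with no call by edgeR. At 1 day every SNI mouse lay above every SCI mouse for Sprr1a, Gadd45a, Flrt3, Csf1, Reg3b and Plaur, against 2.6% of all genes. At 3 days this held for Sprr1a, Csf1 and Reg3b, against 1.07%. Without the glial wells it held at 3 days for Csf1, Reg3b and Plaur and no longer for Sprr1a. Its lowest SNI 3d mouse was then at 198.7 CPM and SCI 3d mouse 4 at 199.4 CPM. With all wells, the read counts behind the Reg3b separation were low. The lowest SNI mouse for Reg3b had 2 reads at 1 day, against at most 1 in an SCI mouse, and 1 read at 3 days, against 0. By edgeR's quasi-likelihood test 0 members and 0 of all genes were called on either day (2408 and 1990 genes at an unadjusted p under 0.05). DESeq2 called 5 members at 1 day (Sprr1a, Gadd45a, Flrt3, Reg3b and Plaur) and 2 at 3 days (Gadd45a and Reg3b). The share of all genes that DESeq2 called in these comparisons is not given here. These counts are therefore not a result about the members. The log2 fold changes of SNI 1d over SCI 1d were 9.39 (SE 2.22, adjusted p = 0.4) for Sprr1a, 6.07 (SE 1.86, adjusted p = 0.461) for Plaur, 2.87 (SE 0.75, adjusted p = 0.425) for Flrt3, 2.80 (SE 0.79, adjusted p = 0.450) for Gadd45a and 2.79 (SE 1.41, adjusted p = 0.502) for Csf1. At 3 days they were 3.49 (SE 1.72) for Sprr1a, 3.12 (SE 1.47) for Csf1, 2.19 (SE 0.78) for Gadd45a, 1.30 (SE 0.71) for Flrt3 and 0.90 (SE 1.83) for Plaur, with adjusted p from 0.584 to 0.947. The pooled Reg3b reads of SNI 1d were 503 times those of SCI 1d (95% exact interval 89.9 to 19913), and at 3 days, where SCI had 0 reads, at least 165-fold higher against a floor of 3 reads over the group. Without the glial wells Sprr1a (9.67, SE 2.14, adjusted p = 0.0687) and Reg3b (adjusted p = 0.0823) were called at 1 day, against 0.889% of all genes, and 0 members at 3 days.

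Between the 2 SNI days, Sprr1a and Plaur moved in opposite directions by mouse. Every SNI 3d mouse was above every SNI 1d mouse for Sprr1a, which held for 1.09% of all genes, and every SNI 3d mouse was below every SNI 1d mouse for Plaur, which held for 0.898%. The log2 fold changes of SNI 3d over SNI 1d were 2.54 (SE 1.68, adjusted p = 0.636) and −2.32 (SE 1.61, adjusted p = 0.659), and 0 of the 9 members were called (1 gene of all, 0.00425%). Between the 2 SCI days no member separated, against 0.932% of genes above and 0.596% below, and 0 were called, against 0 of all genes (2508 at an unadjusted p under 0.05). Without the glial wells Sprr1a no longer separated the SNI days, while 3.37% of all genes were above at 3 days.

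Per kilobase of exon the order of the members changed with time. At SNI 1d the median levels in RPKM, reads scaled to exon length and library size, were 192 for Flrt3, 139 for Gadd45a, 109.7 for Sprr1a, 98.9 for Plaur, 10.1 for Csf1, 5.19 for Anxa1 and 1.44 for Reg3b. The ranges of the first 4 overlap over mice, the highest Csf1 mouse (17.2) was below the lowest Plaur mouse (71.7), and Anxa1, from 0.247 to 41.2, overlapped both of its neighbours. At SNI 3d Sprr1a led with a median of 405, followed by Flrt3 at 135, Gadd45a at 98.6, Plaur at 13.7, Csf1 at 9.38, Reg3b at 1.38 and Anxa1 at 0.615. Every Sprr1a value (229 or more) was above every Flrt3 value (219 or less), Flrt3 and Gadd45a overlapped, Plaur (22.3 or less) was below Gadd45a (65.1 or more), Plaur overlapped Csf1, and Reg3b overlapped Anxa1. In naive mice the medians were 10.4 for Gadd45a, 8.34 for Flrt3, 0.908 for Sprr1a, 0.714 for Csf1, 0.691 for Anxa1 and 0.439 for Plaur, with ranges over mice that overlap between all neighbours. By its naive mean of 59.7, carried by mice 5 and 6 with their glial wells, Anxa1 would lead instead. In these 3 groups the medians of Ecel1, Arg1 and Tgm1 were 0 or, for Ecel1 at SNI 3d, 0.0329.

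In whole L4 DRG 1 day after SCI, Arg1 was the 1 member that rose by edgeR's test. Of the 7 members with a mean count of at least 10, edgeR's quasi-likelihood test called 1, against 2.32% of 17616 genes called in either direction and 1.38% called higher. Arg1 had 0.234, 0.338, 0.157 and 0.262 CPM in uninjured mice (5, 15, 6 and 10 reads) and 0.807, 0.856, 0.718 and 0.899 CPM after SCI (24, 24, 31 and 20 reads). The groups do not overlap, with means of 0.248 ± 0.0747 and 0.820 ± 0.0779 CPM (SD, n = 4), and the log2 fold change was 1.68 (SE 0.26, adjusted p = 0.0175). The level remained under 1 CPM in every library. In whole ganglion, more cells of a type and more RNA per cell cannot be told apart.

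Arginase 1 is also made by myeloid cells. In the same libraries most red blood cell markers and some macrophage markers were called, and no neutrophil marker was. The summed level of 5 red blood cell markers ran from 13.4 to 21.3 CPM in uninjured and from 20.7 to 88.6 CPM in SCI mice, with 4 of 5 called higher. That of 10 macrophage markers ran from 64.4 to 88.2 and from 84.9 to 97.4 CPM (Cd163 and Itgam called higher, Cx3cr1 lower). That of 7 neutrophil markers ran from 8.73 to 17.6 and from 6.21 to 35.8 CPM, with 0 of the 6 tested called. Their part in the Arg1 change was not tested.

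**Figure D4:**
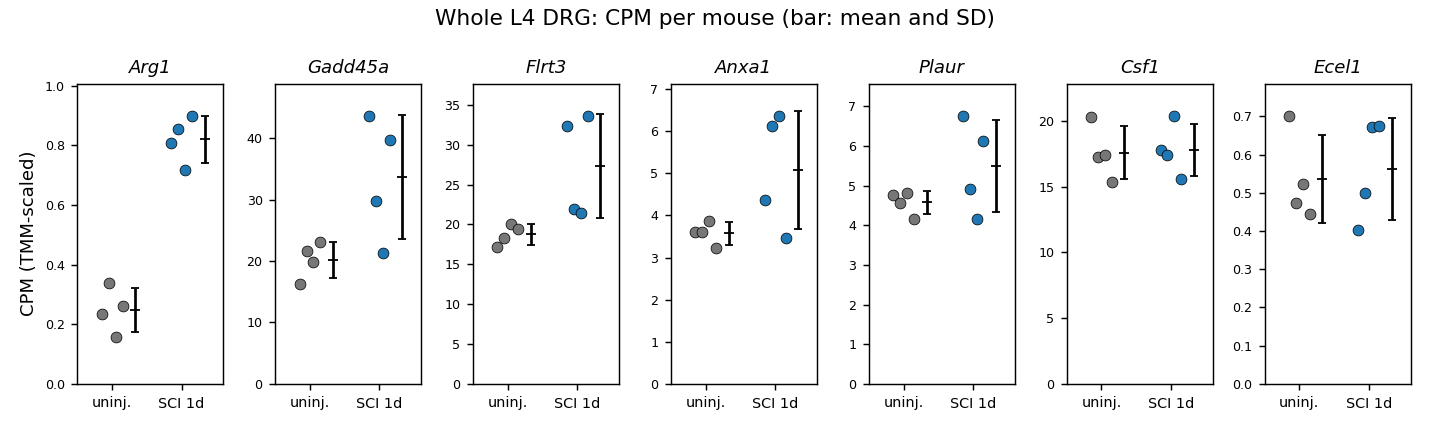
Level in CPM of the 7 members tested in whole L4 DRG, in 4 uninjured mice and 4 mice 1 day after SCI, with the mean and SD as a bar. Arg1 and Flrt3 are the 2 panels in which the groups do not overlap.

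In whole DRG Flrt3 was higher in every SCI mouse and Gadd45a in 3 of the 4, without a call by edgeR's test. Flrt3 had 17.1, 18.3, 20.0 and 19.5 CPM uninjured and 32.4, 21.9, 21.4 and 33.6 after SCI, and with Arg1 it was 1 of 2 members of 7 whose groups did not overlap upward, against 4.92% of all genes. Gadd45a had 16.3, 21.6, 19.8 and 23.1 CPM uninjured and 43.7, 29.9, 21.3 and 39.8 after SCI. In both genes SCI mice 1 and 4 were the highest and mouse 3 was the lowest, at the upper end of or just above the uninjured range. The log2 fold changes were 0.54 (SE 0.15, adjusted p = 0.140) for Flrt3 and 0.73 (SE 0.20, adjusted p = 0.135) for Gadd45a. Without SCI mouse 3 both passed the test, at adjusted p = 0.0594 and 0.0268. DESeq2 called both too, as did edgeR with no count filter.

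The other tested members did not pass. Plaur had 4.77, 4.57, 4.81 and 4.17 CPM uninjured and 6.76, 4.92, 4.17 and 6.12 after SCI, again highest in mice 1 and 4 (log2 fold change 0.26, SE 0.15, adjusted p = 0.485). Anxa1 had 3.60, 3.60, 3.87 and 3.23 CPM and then 4.37, 6.14, 6.37 and 3.46, here with mice 2 and 3 highest (0.52, SE 0.19, adjusted p = 0.232). Csf1 had 20.3, 17.2, 17.4 and 15.4 CPM and then 17.8, 17.4, 20.4 and 15.6, with the groups fully overlapping (0.02, SE 0.11, adjusted p = 0.948). Ecel1 stayed at or under 0.702 CPM (0.11, SE 0.25, adjusted p = 0.878). Sprr1a and Reg3b had 0 to 4 reads and Tgm1 1 to 15 reads per library, under the count filter. With no count filter these 3 were tested too and not called. The median log2 fold change of the 7 tested members was 0.52 beside 0.01 for all genes.

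The families and partners of the members were followed as a list of 77 genes (paralogues, receptors, ligands, inhibitors and enzymes of the same pathway). In sorted neurons 64 were tested, and Arg2 was the 1 called on each SNI day, where 0.685% and 0.706% of all genes were called, with log2 fold changes of 3.24 (SE 0.72, adjusted p = 0.0668) and 3.37 (SE 0.73, adjusted p = 0.0775). Its level ran from 0.0252 to 58.1 CPM in naive mice, from 56.1 to 163 at SNI 1d and from 50.6 to 254 at SNI 3d. Both SNI groups thus overlapped the naive mice only at the highest naive mouse, while SCI mice ran from 15.4 to 49.0 CPM at 1 day and from 19.8 to 29.3 CPM at 3 days, and 0 of the 64 were called after SCI. The median of the list was 0.48 at SNI 1d and 0.39 at SNI 3d, beside 0.17 and −0.01 for all genes. Without the glial wells 11 of 63 were called higher and 1 lower at SNI 1d, and 12 and 1 at SNI 3d, where 8.17% and 7.57% of all genes were called. Called higher on both days were Arg2, Odc1 and Oat of arginine and polyamine metabolism, Gadd45g and Cdkn1a of the growth arrest pathway, the netrin receptor gene Unc5c and the transglutaminase gene Tgm5. Odc1, ornithine decarboxylase, had log2 fold changes of 2.28 (SE 0.37, adjusted p = 0.00553) and 1.79 (SE 0.39, adjusted p = 0.0249), and Unc5c, which encodes a receptor that FLRT proteins can bind, 2.30 (SE 0.33, adjusted p = 0.00397) and 3.11 (SE 0.35, adjusted p = 0.000853).

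In whole DRG after SCI, 54 of the 77 were tested, 5 were called higher and 1 lower, where 2.32% of all genes were called, and the list's median was 0.05 beside 0.01. The gene called lower was Serpine2, a secreted protease inhibitor, which fell by 0.33 on the log2 scale (SE 0.075, adjusted p = 0.0746). Cdkn1a, the cell-cycle inhibitor p21 that GADD45A binds, rose by a log2 fold change of 0.66 (SE 0.14, adjusted p = 0.0498). F13a1, a transglutaminase of macrophages and platelets, rose by 1.08 (SE 0.11, adjusted p = 0.00164), Epb42, a red cell protein of that family, by 1.88 (SE 0.45, adjusted p = 0.0806) and Tgm4 by 0.49 (SE 0.10, adjusted p = 0.0609). Some of the red blood cell and macrophage markers given above were called in the same libraries, and their part in these changes was not tested.

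A further 16 genes known from axotomised DRG neurons, among them Atf3, Jun, Sox11, Gal, Npy and Gap43, were followed as a second list. In sorted neurons all 16 were tested and 3 were called higher on each SNI day: Atf3 (3.81, SE 0.66, and 3.09, SE 0.64), Sox11 (3.64, SE 0.80, and 3.45, SE 0.84) and Sema6a (3.69, SE 0.88, and 3.87, SE 0.89), at adjusted p from 0.0336 to 0.0969, where 0.685% and 0.706% of all genes were called. After SCI 0 of 16 were called in sorted neurons, and the list's medians were 2.29 and 2.46 at SNI 1d and 3d against −0.07 and 0.28 at SCI 1d and 3d. Without the glial wells 8 of 15 were called higher at SNI 1d and 7 at SNI 3d, against 8.17% and 7.57% of all genes. The medians were then 3.31 and 2.79, beside 0.40 and 0.39 for all genes. At SCI 1d and 3d 0 were called, against 0.217% and 0 of all genes. The medians there were 0.30 and 1.10, beside 0.38 and 0.31, with 9 and 13 of the 15 positive. In whole DRG 13 were tested and 2 rose after SCI, where 1.38% of all genes were called higher, Atf3 by 2.39 (SE 0.27, adjusted p = 0.00431) and Jun by 0.68 (SE 0.088, adjusted p = 0.00893), with a list median of 0.29.

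The genes outside the 10 whose level over the 22 mice of sorted neurons was most like that of the members were Grp, Gpr151, Trim15, Snai2 and Hao1. Pearson's r between the log2(CPM + 1) of each and the mean z score of the 9 detected members was 0.92, 0.91, 0.89, 0.88 and 0.87. These values are a description over mice that share library preparation and glial content.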

How the data were processed

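RNA was sequenced from whole L4 DRG of 8 mice and from 66 wells of FACS-sorted cells of 22 mice. Per the labels and the study's methods the authors trimmed reads with Cutadapt, aligned them to mm10 with STAR 2.5.3a and counted them per gene with HTSeq 0.6.1. As deposited, each file holds raw counts of reads for 53379 genes, and 53274 identifiers matched a symbol of GENCODE vM21. The 5 closing lines that name no gene were left out. Whether counting used strand is not given in the sources used here. In the series tables, 123 columns of normalised values per sample, whose samples were not among those labelled here, and the authors' fold changes and p-values were not used.

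Levels are CPM after TMM scaling, and those of single wells are CPM of the well's own total. Genes averaging 10 or more reads (DRG) or reaching 20 reads in any mouse (FACS, 3 wells summed) were tested with edgeR 4.0.16 in R 4.3.3, by the quasi-likelihood F-test. P-values were adjusted by Benjamini-Hochberg over all genes tested, at a threshold of 0.1. The FACS fit held all 22 mice and 2 RUVr factors, estimated from residuals centred per gene, to follow the study's design. The 4 DRG mice of each group and the mice of each FACS group are separate animals in the labels. The study's methods used DESeq2, run here in version 1.42.0 as an alternative. Intervals of read ratios are exact at 95% and cover counting error only, and a group at 0 reads was set to a floor of 3.

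On simulated counts the DRG fit (17462 genes) recovered 99% of genes changed 2-fold and 100% of those changed 4-fold, with 17 of 216 calls false. The simulated SNI 1d fit (21622 genes) recovered 27% of genes changed 8-fold and 82% of those changed 64-fold, with 5 of 114 calls false. Changes were placed only in genes averaging at least 100 reads, and glial wells were not simulated. The rates therefore do not cover members with fewer reads, such as Arg1 in whole DRG and Reg3b, Ecel1 and Tgm1 in sorted neurons. The 10 members, the lists of relatives, of other axotomy genes and of cell markers, and the rule for genes of like pattern (the 5 with the highest correlation) were chosen with earlier results of these data known. All members are named, relatives where called or closest to a member, except for results that are not reported here. Replicates were compared in pairs, and no pair was identical or within sampling noise (chi-square per gene at least 4.35). Alternatives left out glial wells, mice in turn, filters or RUVr factors, or added the library set or replicate block.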

Additional observations from a re-analysis of the deposited data

Results flagged for a closer look

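For each member and group of 4 or 6 mice whose highest mouse had at least 20 reads, the distance of the extreme mouse from its nearest neighbour was set against Dixon's 95% critical value. Of 48 groups 9 had such a mouse, where chance gives about 1 in 20 if values are normally distributed. Groups with mice at 0 CPM, such as Ecel1 at SNI 1d and Tgm1 at SNI 3d, are not so distributed. The 9 can therefore not be set against that rate. Sprr1a in naive mouse 4 was at 12.92 CPM, above the other naive mice. Gadd45a in SCI 3d mouse 1 was at 174.4 CPM. Ecel1 was at 5.853 CPM in SNI 1d mouse 3 and at 1.306 CPM in SCI 3d mouse 2, and Tgm1 at 0.8134 CPM in SNI 3d mouse 4, each carried mainly by 1 well. Anxa1 was at 4.588 CPM in SCI 1d mouse 4 and at 356.3 CPM in SCI 3d mouse 3. The wells of SCI 3d mouse 3 were all glial by the list rule, and its fibroblast and vessel level was the group's highest. Plaur was at 10.85 CPM in SCI 1d mouse 4 and, on the low side, at 0.3113 CPM in SNI 3d mouse 3, whose wells were all glial.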

How the results depend on the processing

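In whole DRG, where 1 member was called, DESeq2 and the fit with no count filter called 3 (Gadd45a and Flrt3 with Arg1), and leaving out 1 mouse gave 1 to 3, the 3 without SCI mouse 3. Arg1 was called under every alternative run. At SNI 1d, where 3 were called, DESeq2 called 7, the fit without glial wells 6, adjusted p under 0.05, naive mice of the same day, and no glial wells with no RUVr factor 1 each, and no RUVr factor, uncentred factors and the library set 0 each. Leaving out 1 mouse gave 1 to 5 (1 without naive 2, naive 5 or SNI 1d 3, and 5 without SNI 3d 3). At SNI 3d, where 4 were called, DESeq2 called 7, no glial wells with no RUVr factor 1, and adjusted p under 0.05, no count filter, no or 1 RUVr factor, uncentred factors, the library set and naive mice of the same day 0 each. Leaving out 1 mouse gave 0 to 4 (1 without naive 1, 2 without SNI 1d 1, and 0 without naive 2, naive 3, SNI 1d 2, SNI 1d 4, SNI 3d 1, SNI 3d 4 or SCI 1d 4). DESeq2 called 1 at SCI 1d (Ecel1), 2 at SCI 3d (Sprr1a and Ecel1), 5 for SNI 1d over SCI 1d, 2 for SNI 3d over SCI 3d and 1 for SCI 3d over SCI 1d, where the edgeR fit called 0. It also called more of all genes (929 against 408 in whole DRG, 1506 against 161 at SNI 1d and 1175 against 0 at SCI 3d). Without glial wells 2 were called for SNI 1d over SCI 1d. Of 245 alternative counts of members called 41 moved, and the other 204 stayed within 1.5 times the main count. The 204 include comparisons in which the main fit and the alternative both called 0. They are therefore no measure of how stable the SNI calls were.

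In whole DRG same-numbered mice did not deviate together more than others. Their r ran from −0.158 to 0.257, against −0.313 to 0.306 for mice of different number. In sorted neurons r of same-numbered mice ran from −0.0253 to 0.414, which alone does not settle whether the numbers pair them. With the replicate block 1 member was called in whole DRG (Arg1) and 0 at SNI 1d, at SNI 3d and in the other sorted-neuron comparisons.

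Of 1289 alternative fold changes 16 changed sign, all of genes not called in that comparison. Plaur at SNI 3d was −0.61 against the naive mice of the same day, and for SNI 3d over SCI 3d −0.36 with no RUVr factor. At SCI 1d Csf1 was −0.13 with no RUVr factor and −0.53 with the library set, and Plaur 0.81 without glial wells and 0.89 with naive mice of the same day. At SCI 3d Csf1 was −0.20 with the replicate block. Leaving out 1 mouse gave −0.0031 to 0.25 for Ecel1 and −0.042 to 0.098 for Csf1 in whole DRG, −0.011 to 0.92 for Gadd45a and −3.00 to 1.45 for Plaur at SCI 1d, −0.36 to 1.41 for Gadd45a and −1.10 to 1.68 for Csf1 at SCI 3d, and −1.25 to 1.71 for Plaur in SNI 3d over SCI 3d. Mice were not left out in turn for the comparisons between days. The causes of these shifts were not tested. Between mice the sorted neurons varied by a biological coefficient of variation of 1.20, against 0.133 in whole DRG.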
